A study of Mus musculus with 4 samples.

Results

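The regions described here are short stretches of mouse embryonic forebrain chromatin, 1 to 3 kb wide, that carried trimethylated lysine 4 of histone H3 (H3K4me3). These regions had trimethylated lysine 36 (H3K36me3) above its input over the DNA on one side and below its input on the other. They numbered 3521 of 7716 narrow H3K4me3 regions and of 7992 H3K4me3 regions of any width on chromosomes 1 to 19. A 1 kb bin counted as H3K4me3-marked when it held 20 or more tags of the H3K4me3 library and at least 4 times its scaled input. Such bins were joined over gaps of up to 1 bin. The side was read from the H3K36me3 ratio, ChIP tags over scaled input tags with 1 added to each, in the 10 kb that lay 1 to 11 kb beyond each edge. A region was taken when one flank had a ratio of 2 or more, called the marked side below, and the opposite flank, called the other side, had a ratio below 1. The regions were thus chosen by measured values, and the H3K4me3 level inside and the H3K36me3 ratio at 1 to 11 kb are given as descriptions only.

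H3K4me3 is placed near transcription start sites by the SET1 and MLL methyltransferase complexes and marks the promoters of active and of poised genes. H3K36me3 is placed by SETD2, which travels with elongating RNA polymerase II, so that it covers the bodies of transcribed genes rather than their starts. At a promoter read in one direction the textbook layout is therefore H3K4me3 at the start and H3K36me3 downstream of it, and this pair of marks has been used to locate transcribed units without gene models.

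Chromatin came from the forebrain of CD1 mouse embryos, an outbred stock, at 11.5 days post coitum, a stage when the forebrain wall consists mostly of dividing neural progenitors. Tissue from many embryos was combined, 36 forebrain pieces for each ChIP library, so no library stands for one animal or one cell type. The 4 groups, H3K4me3 ChIP, its input, H3K36me3 ChIP and its input, each held 1 library, and no treatment or mutation was involved. The H3K4me3 ChIP and its input went through 8 cycles of whole-genome amplification (WGA), whereas neither library of H3K36me3 was amplified, so that mark and amplification cannot be told apart. With 1 library in each group there is no replicate check and no p-value, and every interval below is an exact 95% Clopper-Pearson interval that covers counting error only. The tags used on nuclear chromosomes numbered 7606197 for H3K4me3 and 2513019 for its amplified input, and 10466543 for H3K36me3 and 23110768 for its unamplified input. Mean depth over the covered kilobases of chromosomes 1 to 19 was 3.36, 1.12, 4.74 and 10.4 tags per kb in that order. Regions are named by their position in the mouse build mm8. No gene model or sequence of that build was used here, so the genes, exons and strands at these positions are not given.

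One-sided H3K36me3 was the most common layout among narrow H3K4me3 regions. The share was 45.6% of the narrow regions (interval 44.5 to 46.8). How often positions without H3K4me3 have such flanks was not measured, so this share has no genome value beside it. Of all 10 kb windows, 10.3% had an H3K36me3 ratio of 2 or more and 83.3% a ratio below 1. The H3K4me3 rule itself was passed by 0.607% of all 1 kb bins, which is a share of another kind. H3K36me3 reached the ratio of 2 on both flanks at 1169 regions (15.2%), and stayed below 1 on both at 1132 regions (14.7%). The rest lay between: 627 had one flank at 2 or more with the opposite flank at 1 to 2, and 1267 had a larger flank of 1 to 2. The marked side lay toward higher coordinates at 1764 one-sided regions and toward lower coordinates at 1757, a share of 50.1% (48.4 to 51.8) for the higher side. Neither direction along the chromosome was therefore favoured beyond counting error over the whole set. Stricter flank limits, at least 3 and below 0.5, left 2226 one-sided regions.

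**Figure D1:**
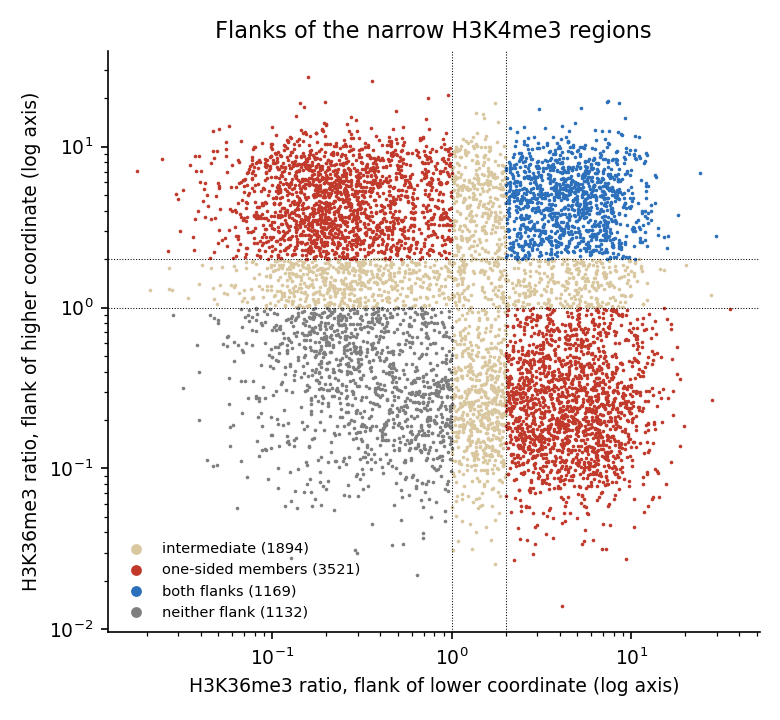
H3K36me3 ratio of the flank at lower coordinates (x axis, log scale) against that of the flank at higher coordinates (y axis, log scale) for each of 7716 narrow H3K4me3 regions, with dotted lines at the ratios 1 and 2 of the rule. The 3521 one-sided regions fill the upper left and lower right blocks, the 1169 regions with both flanks marked the upper right and the 1132 with neither the lower left.

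The layout was spread over all 19 autosomes. One-sided regions made up from 39.8% of the narrow regions on chromosome 12 (34.1 to 45.7) to 48.5% on chromosome 9 (43.8 to 53.2), and those intervals overlap. The share whose marked side lay at higher coordinates ran from 39.1% on chromosome 13 (31.2 to 47.3) to 57.9% on chromosome 18 (47.3 to 68.0). Chromosome 13 had an interval that excluded an even split, and it is 1 of the 19 chromosomes looked at.

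The contrast between the flanks was wide. The marked flank had a median ratio of 4.58 (quartiles 3.11 and 6.76, highest 35.5) and the other flank a median of 0.235 (0.145 and 0.409). In tags, the median marked flank held 264 of the H3K36me3 library and the median other flank 11, beside 124 and 117 tags of the unamplified input. The input medians were thus close while those of the ChIP were not. Pooled over these flanks, the input held 14.2 tags per kb on the marked side and 12.6 on the other, and H3K36me3 held 34.0 and 1.70. Over all 10 kb windows of chromosomes 1 to 19, the median ratio was 0.270 (quartiles 0.160 and 0.568), with 10.3% of windows at 2 or more and 83.3% below 1. The median other flank therefore sat near the level of an ordinary 10 kb window. Of the 3521 other flanks, 1878 were below 0.25 and 2896 below 0.5, and the rest lay between 0.5 and 1. A ratio below 1 thus does not mean that H3K36me3 was absent. The rule fixed both of these sides, so no weight rests on the gap itself.

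The regions with the largest contrast had an empty flank beside a full one. The largest was at chr7:43430001-43431000, where the flank at higher coordinates held 426 H3K36me3 tags and 131 unamplified input tags, a ratio of 7.08, and the other flank held 0 H3K36me3 tags beside 122 input tags, which allows a ratio of up to 0.0678 there. At chr1:172051001-172053000 the marked flank, at lower coordinates, held 338 H3K36me3 tags and the other 0, each beside 78 input tags. In both regions the input tags were placed on the empty flank as densely as on the full one. The next in order were chr13:38535001-38536000 (382 against 0 H3K36me3 tags), chr16:19674001-19675000 (279 against 0) and chr10:110148001-110151000 (907 against 2).

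Regions near the limits of the rule were many. At the marked flank, 155 one-sided regions had a ratio of 2 to 2.2, and 194 narrow regions with a low other flank missed at 1.8 to 2. At the other flank, 94 one-sided regions had a ratio of 0.9 to 1, and 108 missed at 1 to 1.1. In H3K4me3, 284 had 20 to 24 tags in their highest bin and 71 had the minimum of 20. The closest inside the marked limit were chr5:121973001-121975000 and chr7:65989001-65990000, at 2.002 each, and the closest outside were chr6:124822001-124823000 and chr4:9595001-9596000, at 1.999 each. At the other limit, chr5:31331001-31332000 and chr2:120094001-120097000, at 0.998 and 0.996, were taken, and chr8:122986001-122987000 and chr2:119663001-119665000, at 1.001 and 1.002, were not. For each of these the interval of the ratio spanned the limit, so counting error alone leaves their class undecided.

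H3K36me3 on the marked side went well past the 11 kb that the rule looked at. At 11 to 21 kb beyond the marked edge, 2511 of the 3521 regions had a ratio of 2 or more (71.3%, 69.8 to 72.8), beside the 10.3% of all windows given above. At the same distance on the other side 425 did (12.1%, 11 to 13.2), close to the share of all windows, and the median ratio was 0.268 there against 3.86 on the marked side. These windows were not used to choose the regions, but they come from the same libraries and touch the flanks that were, so they are not independent of the rule. When the flank was cut to 1 to 6 kb, the share on the other side was 18.8%. Regions with both flanks marked had 74.4% and 64.8% at that distance on the side of the larger and the smaller flank, and regions with neither had 13.6% and 4.86%.

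The mark fell off slowly with distance. Pooled over the one-sided regions, with no 1 added, the ratio on the marked side was 2.32 in the first kb beyond the edge and 4.34 in the second, and was highest at 5.61 at 6 to 7 kb. It was 4.14 at 11 to 21 kb, 3.14 at 21 to 31 kb, 2.62 at 31 to 41 kb and 2.27 at 41 to 51 kb. At 91 to 101 kb it was 1.72 on the marked side and 1.55 on the other, with 27.6% (26.2 to 29.1) and 23% (21.6 to 24.4) of the windows at 2 or more. The sides thus differed little by that distance, and both stood above the 10.3% of all windows. On the other side the ratio was lowest at 0.205 in the first kb beyond the edge, where the unamplified input was high. That kb held 1.62 H3K36me3 and 17.5 input tags per region. The second kb held 1.81 and 12.3, and the kb at 7 to 8 kb held 1.52 and 12.8. The lowest ratio was thus not the lowest H3K36me3 count. The ratio on this side reached 0.986 at 11 to 21 kb and 1.38 at 21 to 31 kb. The rule held the other side down to 11 kb, and the rise set in where it ended.

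**Figure D2:**
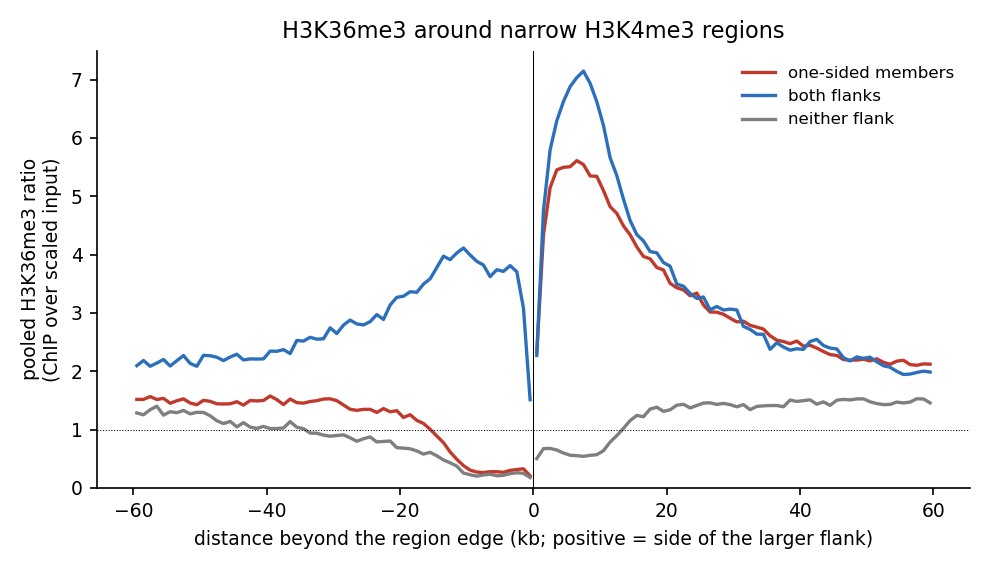
Pooled H3K36me3 ratio (ChIP tags over scaled unamplified input tags, y axis) in 1 kb steps by distance beyond the edge of the H3K4me3 region (x axis, kb), with the side of the larger flank to the right, for one-sided regions, regions with both flanks marked and regions with neither. The line of the one-sided regions rises to 5.61 at 6 to 7 kb on the marked side and stays near 0.3 out to about 10 kb on the other, which the rule fixed.

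The unbroken run of H3K36me3 on the marked side was measured in 5 kb windows from 1 kb beyond the edge, counted for as long as the ratio stayed at 2 or more. The median run was 15 kb (quartiles 5 and 30 kb), and 60 kb was the 95th percentile. Runs of 30 kb or more were found at 963 regions (27.4%), of 50 kb or more at 355 (10.1%) and of 100 kb or more at 19 (0.540%). Runs on the larger-flank side of regions with both flanks marked were much the same, with a median of 15 kb, and 27.9%, 8.47% and 0.599% of them reached those lengths. The longest was 170 kb, at chr11:62098001-62099000, toward higher coordinates. It was followed by 160 kb at chr11:23397001-23398000, 155 kb at chr2:17981001-17984000 and at chr4:144461001-144462000, and 150 kb at chr11:68507001-68510000. These long runs began at regions of both strong and weak H3K4me3, from 22 tags at the chromosome 4 region to 174 tags at the last one named. Up to 10 kb of a run fell inside the flank that the rule used. With the input scaled on background bins in place of library totals, the median run was 30 kb.

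At 486 regions (13.8%) the run was 0, because the ratio in the first 5 kb window was below 2 although that of the whole flank was not. Their median ratio was 1.47 at 1 to 6 kb and 3.97 at 6 to 11 kb. In the other 3035 the medians were 4.88 and 4.95. Since the rule asked for 2 or more over both windows together, a higher value at 6 to 11 kb followed from the choice of these 486. They held a little less H3K4me3, 37.8 tags per kb at the median where the other 3035 had 43.

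**Figure D3:**
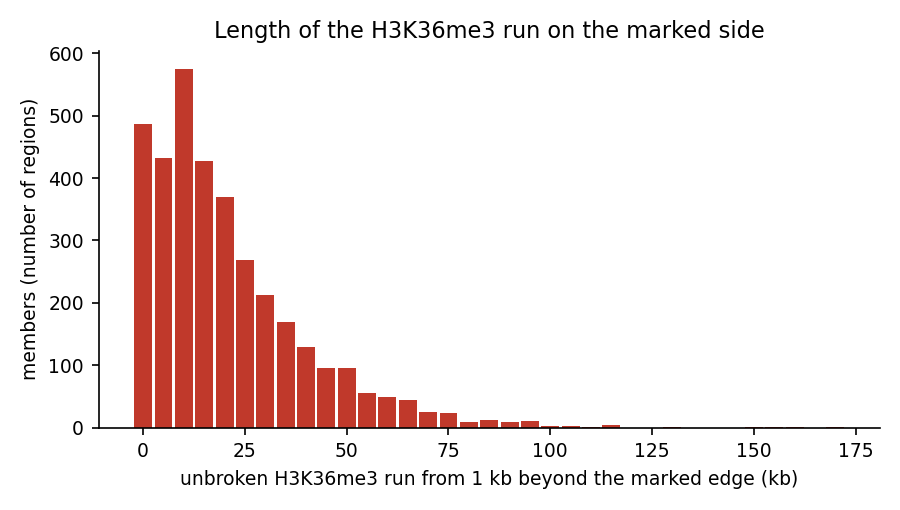
Number of one-sided regions (y axis) by the length of the unbroken H3K36me3 run on the marked side (x axis, kb, in 5 kb steps). The bar at 0 holds 486 regions, the median is 15 kb, and the tail reaches 170 kb.

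H3K4me3 inside the one-sided regions had a median of 42 tags per kb (quartiles 31.3 and 57). The medians were 45 in regions with both flanks marked and 31.2 in regions with neither. When all narrow regions were ordered by H3K4me3 tags per kb and cut into 4 bands, the one-sided share was 35.9% (33.6 to 38.1) in the lowest and 52.7% (50.5 to 55.0) in the highest, with 43.5% and 49.7% between. The share with both flanks marked went from 10.8% to 20.5%, and the share with neither went from 26.1% to 6.81%. H3K4me3 tags and flank ratios are both values that the rule used, so these shares are a description. Within the one-sided set, the median marked ratio was 4.04 in the lowest band and 5.36 in the highest, and Spearman's rho between H3K4me3 tags per kb and the marked ratio was 0.18 across 3521 regions from the same libraries.

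Widths of 1, 2 and 3 kb were seen at 1809, 1314 and 398 one-sided regions, 44.0% (42.5 to 45.5), 48.8% (46.9 to 50.7) and 43.6% (40.3 to 46.9) of the narrow regions of each width. The one-sided layout was thus most frequent at 2 kb. The median marked ratio was 4.27 at 1 kb, 4.96 at 2 kb and 5.2 at 3 kb.

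The 5 regions with most H3K4me3 varied in what lay beside them. The strongest, chr2:77746001-77748000, held 597 H3K4me3 tags beside 2 of the amplified input. Its marked flank, at lower coordinates, had a ratio of 3.44 (1481 H3K36me3 and 949 input tags) and the other 0.184, and the run was 55 kb. This region also held 240 tags of the unamplified input, the most of any one-sided region. At chr17:28760001-28762000, 407 H3K4me3 tags stood beside 0 of the input, and the flanks had ratios of 13.0 and 0.353. The others held 355 tags (chr16:22179001-22182000), 350 tags (chr7:92615001-92618000) and 302 tags (chr2:38645001-38648000). Their marked flanks had ratios of 10.3, 3.37 and 4.44 and their runs were 30, 10 and 75 kb, so a high H3K4me3 count went with no one level or length of H3K36me3.

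Inside the H3K4me3 regions the level of H3K36me3 depended on the input it was set against. Against the unamplified input, the pooled ratio inside was 0.335 (0.330 to 0.340), and against the amplified input it was 1.17 (1.13 to 1.20). The inputs themselves differed there: relative to its own mean over chromosomes 1 to 19, the unamplified input stood at 2.43 times, the amplified input at 0.702 times, the H3K36me3 ChIP at 0.805 times and the H3K4me3 ChIP at 14.2 times. The H3K4me3 rule called bins by their ratio to the amplified input, so the low level of that input inside is in part selected. The ratio of 1.17, which divides by it, is raised to the same extent. With the unamplified input scaled on background bins the ratio was 1.13, so no direction inside holds for every setting tried. With either input the ratio was lower in regions with neither flank marked (0.206 and 0.788) and higher in those with both (0.427 and 1.47). With the unamplified input it also went up with width, from 0.233 at 1 kb to 0.341 at 2 kb and 0.508 at 3 kb.

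Set against the unamplified input, a small group carried both marks in the same place. At 87 one-sided regions (2.47%) the H3K36me3 ratio inside was 2 or more by that input, near the 2.16% of all narrow regions. The unamplified input stood at 2.43 times its mean inside, which lowers the ratio, and the regions were not counted with the amplified input. The size of the group therefore holds for the unamplified input only. The share was 3.08% in regions with both flanks marked and 0.795% with neither. At 690 one-sided regions (19.6%) there were 0 H3K36me3 tags inside, beside 22.0% of all narrow regions. The highest ratio inside was at chr1:88359001-88360000, with 223 H3K36me3 tags and 43 unamplified input tags, a ratio of 10.9. The next were chr4:153805001-153807000 (337 and 68 tags), chr15:96526001-96527000 (79 and 15), chr5:143170001-143172000 (325 and 68) and chr4:147469001-147470000 (42 and 8). The 87 regions had a median of 52.3 H3K4me3 tags per kb and a median marked ratio of 6.24, against 42 and 4.54 in the other 3434. In pooled tissue, overlap of the marks on one chromosome and their presence in different cells cannot be told apart.

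In the first kb beyond the edges, H3K4me3 differed between the sides by less than counting error. A region ended only where the next 2 bins failed the H3K4me3 limits. The rule thus held down the H3K4me3 tags in the first 2 kb on both sides, which limits how far the sides could differ there. The pooled tags per region were 9.97 on the marked side and 10.1 on the other, a ratio of 0.990 (0.976 to 1.01). It was 0.95 (0.936 to 0.964) with bins begun 500 bp later and 0.973 (0.959 to 0.988) with flanks of 1 to 6 kb, both below 1 by more than counting error. In the second kb the ratio was 0.918 (0.899 to 0.939) and in the third 0.970 (0.947 to 0.994), so that a little more H3K4me3 lay on the other side there. The amplified input gave 1.18 (1.13 to 1.23) in the first kb and the unamplified input 0.806 (0.796 to 0.815), in opposite directions. In the second kb both inputs were above 1, at 1.08 (1.04 to 1.12) for the amplified and 1.1 for the unamplified input. In the third kb the unamplified input gave 1.12, and the amplified input gave 1.03 (0.985 to 1.07), an interval that includes 1.

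Around the H3K4me3 centre, the median position of a region's H3K4me3 tags, each library had a shape of its own. In 50 bp steps, H3K4me3 was highest at the centre, 41.3 times its library mean, as the choice of centre favours. H3K36me3 was lowest, 0.263 times its mean, at 651 to 700 bp on the other side, and had climbed to 2.2 times by 1 kb on the marked side. The unamplified input was highest not at the centre but at 251 to 300 bp on the other side, where it stood at 3.62 times its mean. It was 2.0 times its mean near 1 kb on the other side and 1.39 times near 1 kb on the marked side. The amplified input was lowest close to the same place, at 351 to 400 bp on the other side, with 0.371 times its mean. The inputs thus had a peak and a trough within 200 bp of each other, both displaced away from the H3K36me3 side. The H3K4me3 rule held the amplified input down inside the regions, so the depth of its trough is in part selected. The layout was not particular to the one-sided regions: in regions with neither flank marked, the unamplified input was highest, 3.02 times its mean, at 201 to 250 bp on the side of the smaller flank, and the amplified input was lowest, 0.379 times, at 251 to 300 bp there. In regions with both flanks marked the unamplified input was highest, 3.37 times, at 201 to 250 bp on that side. Their amplified input was lowest, 0.566 times, at 601 to 650 bp on that side and equally at 400 to 449 bp toward the larger flank. By single steps the trough of the amplified input thus had no one side in that class. Pooled within 1 kb of the centre, its tags toward the smaller flank over those toward the larger gave 0.909 (0.836 to 0.989). By region, the side of the smaller flank led in 48.6% (45.1 to 52.2) of those that differed.

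**Figure D4:**
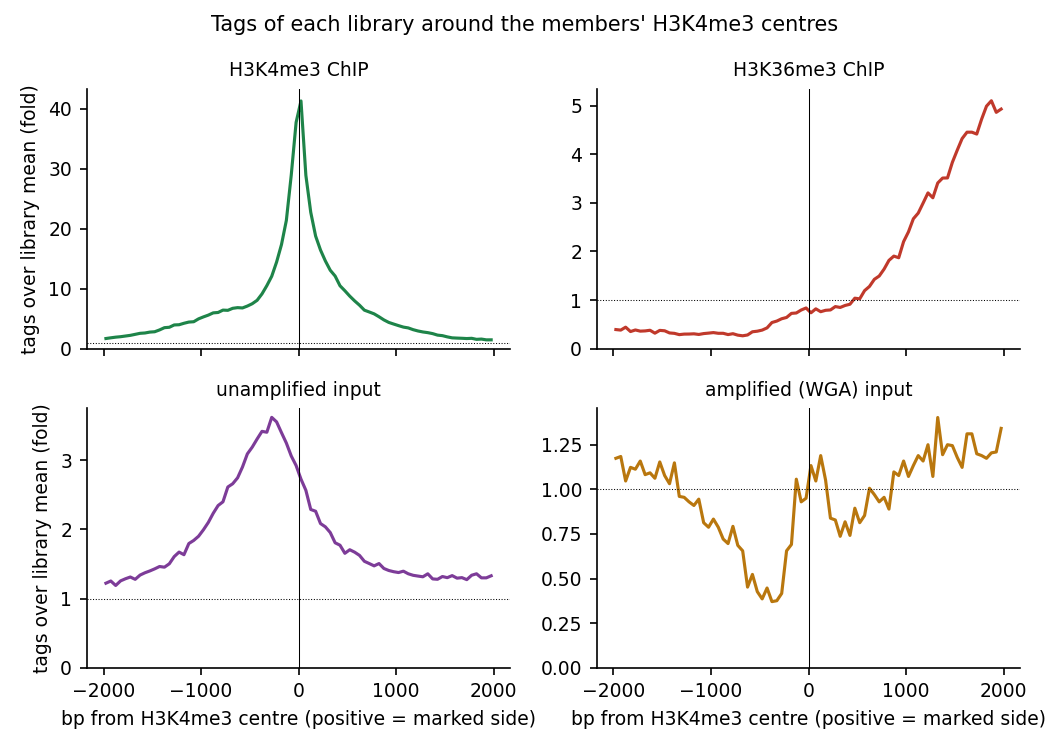
Tags of each library relative to its mean on chromosomes 1 to 19 (y axis, fold) in 50 bp steps around the H3K4me3 centre of 3521 one-sided regions (x axis, bp, marked side positive). The unamplified input peaks at 3.62 on the other side of the centre, where the amplified input has its lowest value of 0.371.

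This displacement was seen region by region. Within 1 kb of the centre, a window that does not reach the flanks the rule used, a one-sided region held on average 30.1 unamplified input tags on the other side and 18.8 on the marked side. The other side held more in 2660 regions, the marked side in 812, and 49 were even, so that the other side led in 76.6% of those that differed (75.2 to 78.0). The amplified input leaned the opposite way, with 36.6% (34.6 to 38.6), on 0.719 and 1.06 tags per region. H3K4me3, whose own tags set the centre and so hold its sides near even, gave 42.8% (41.1 to 44.5) on 38.6 and 41.1 tags. The inputs, for which no antibody was used, were thus uneven around the H3K4me3 centre in opposite directions, and the cause was not tested.

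The unamplified input lean was stronger in the one-sided regions than in the other narrow classes. Turned by their larger flank, 59.0% (56.1 to 61.8) of regions with both flanks marked, 64.2% (61.3 to 67.0) with neither, 61.0% (57.1 to 64.9) with one flank at 2 or more and the opposite at 1 to 2, and 69.5% (66.9 to 72.1) with a larger flank of 1 to 2 had more input on the opposite side. None of these intervals reached that of the one-sided regions. All classes were above an even split. In the other classes the flanks can be nearly equal, so the side by which a region was turned is less sure there. The part of that in the weaker lean was not tested. The unamplified input is also the divisor of the flank ratio, in windows beyond those counted here, and the part of that in the lean was not tested beyond setting the amplified input in its place, which gave 75.1%.

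Within the set, the lean was largest in the band with the highest marked ratio. By marked ratio it was 77.0% at 2 to 3, 73.7% (71.0 to 76.2) at 3 to 5, 76.0% at 5 to 8 and 83.5% (80.1 to 86.5) at 8 or more. Width and direction made little difference: it was 76.1% in regions 1 kb wide, 77.2% at 2 kb and 77.2% at 3 kb, and 77.1% and 76.1% in regions marked toward higher and lower coordinates. Regions with a run of 0 had 73.3% (69.1 to 77.2). Those with H3K36me3 inside at a ratio of 2 or more had 84.9% (75.5 to 91.7). The band at 8 or more stood above the lower bands by more than counting error, narrowly so for the band at 2 to 3 (73.9 to 79.9). The lower bands showed no steady rise. The marked ratio was used by the rule and is itself divided by the unamplified input, so these bands are a description only.

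**Figure D5:**
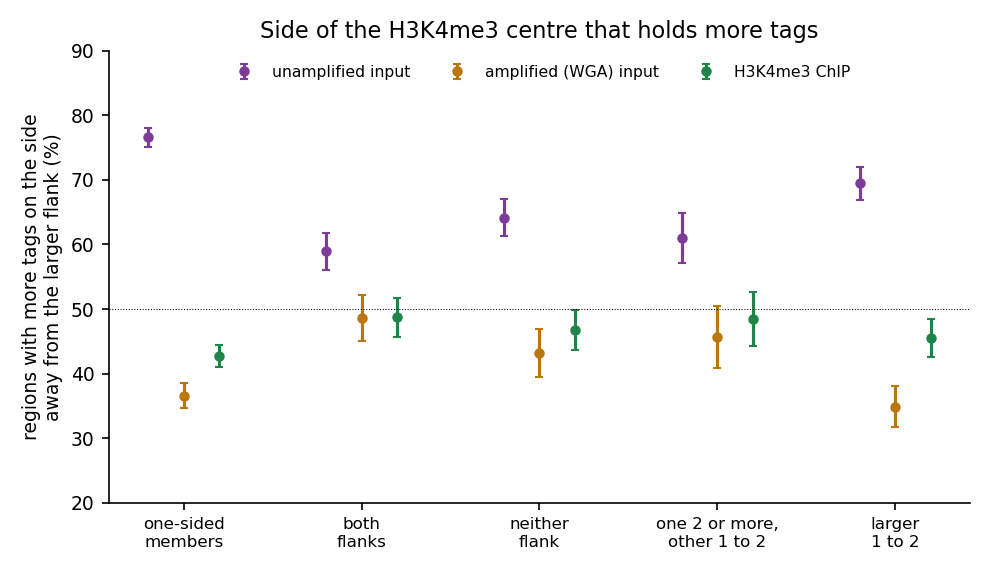
Share of narrow H3K4me3 regions with more tags on the side away from the larger H3K36me3 flank, within 1 kb of the centre (y axis, %, from 20 to 90, ties left out), for the unamplified input, the amplified input and H3K4me3 in each flank class, with exact 95% intervals as bars. One-sided regions are highest for the unamplified input at 76.6% and lie below 50% for the other libraries.

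Few one-sided regions had another H3K4me3 region close by. Another H3K4me3 region of any width lay within 10 kb of the marked edge at 159 one-sided regions (4.52%, 3.85 to 5.25) and within 10 kb of the other edge at 220 (6.25%, 5.47 to 7.10), while such regions touched 3.53% of all 10 kb windows. Neighbours within 10 kb were thus slightly more frequent on the other side, but not in every setting. With the H3K36me3 input scaled on background bins the shares were 3.70% (3.05 to 4.44) and 3.97% (3.29 to 4.73). Those intervals overlap, and both include the 3.53% of all windows. The shares were 2.02% and 3.71% when a bin needed 30 tags and a ratio of 8, and 7.80% and 10.0% when no gap was joined. Regions with both flanks marked had a neighbour in 9.50% and 16.9%, and regions with neither in 5.92% and 6.36%, on the side of the larger and smaller flank. The median distance to the next region was 93 kb on the marked and 98 kb on the other side of one-sided regions, 42 and 40 kb for both flanks marked, and 212.5 and 167.5 kb for neither. By median distance one-sided regions lay between the other classes, and within 10 kb they had the lowest share of the 3 classes on both sides, although the intervals of the regions with neither (4.62 to 7.46 and 5.01 to 7.94) overlapped theirs.

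Where 2 one-sided regions followed each other along a chromosome with no other H3K4me3 region between, their sides could be compared. There were 1588 such pairs. Marked sides faced each other in 410 (25.8%), other sides faced each other in 486 (30.6%), and 692 (43.6%) pointed the same way. Gaps of 20 kb or less were found in 51, 104 and 39 pairs respectively, so that close pairs most often turned their marked sides away from each other. The rule itself limits close pairs that point the same way, since the other flank of one then overlaps the marked flank of its neighbour. In gaps of up to 50 kb the pooled H3K36me3 ratio was 5.71 between facing marked sides (135 pairs), 0.343 between facing other sides (202 pairs) and 2.77 in pairs that point the same way (159 pairs), which follows in part from the flanks that chose them.

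The closest pair of each kind shows the arrangement. With marked sides facing, chr5:138008001-138009000 and chr5:138015001-138016000 lay 6 kb apart and held 45 and 46 H3K4me3 tags, and their marked flanks had ratios of 4.45 and 4.91. With other sides facing, chr5:130308001-130309000 and chr5:130314001-130315000 lay 5 kb apart, with marked ratios of 2.09 and 3.16 outward and other ratios of 0.508 and 0.469. Pointing the same way, chr1:182684001-182685000 and chr1:182687001-182689000 lay 2 kb apart with 22 and 172 H3K4me3 tags, and both were marked toward higher coordinates at ratios of 4.43 and 8.75. At gaps this short the flanks of a pair overlap, so their ratios are not separate measurements.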

How the data were processed

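The authors deposited 1 list of uniquely placed tags per library, each line a chromosome, a position and a strand, and the submitters' processing notes give mm8 as the build. Which aligner placed the tags is not given in the sources used. From these deposited positions, repeated tags were collapsed, which removed 27.5% of the amplified input and none of the other lists, and tags were moved 75 bp along their strand and counted in 1 kb bins of chromosomes 1 to 19 (Python 3.11.15, numpy 2.4.6, scipy 1.17.1). Inputs were scaled by library totals, by 3.027 for H3K4me3 and 0.453 for H3K36me3. Ratios of single windows add 1 to each count, and pooled ratios do not. Other narrow classes were turned by their larger flank. The steps were tested on simulated tags. The regions, lists and measures were chosen with earlier results of these data known. Named regions are the 5 with most H3K4me3 tags, the 5 with the largest contrast of flanks and the 5 with the longest runs. Also named are the 5 with the highest H3K36me3 ratio inside, those nearest the limits and the closest pair of each orientation. Chromosome 18 was left out of these names. The lean of tags around the centre was added after seeing the data. For each of the main results recomputed in the closing section, 9 alternatives were tried. The shares by chromosome, width and H3K4me3 band, the pairs and the lean by band or class were not among them. Depth limits the amplified input most: 1247 of the 3521 regions (35.4%) held 0 of its tags.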

Additional observations from a re-analysis of the deposited data

Results flagged for a closer look

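Chromosome X lies outside the chromosomes that the rule covers, and the same pattern was found there. It held 286 H3K4me3 regions, of which 279 were narrow and 123 were one-sided (44.1%, exact 95% interval 38.2 to 50.1), close to the 45.6% of chromosomes 1 to 19. Their H3K4me3 tags numbered 7602 beside 98 of the amplified input, a ratio of 25.6 (21 to 31.6). The median marked ratio was 3.89, the median run was 15 kb, and 62 were marked toward higher coordinates. The unamplified input had more tags on the other side of the centre in 98 of the 120 regions that differed.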

How the results depend on the processing

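Of 108 values recomputed over 12 results and 9 alternatives, 32 moved and 2 reversed. Of the rest, 66 stayed within the counting interval of the reported value, and 8 were counts of one-sided regions within 1.5 times of it, from 2618 (30 tags and a ratio of 8 per bin) to 3705 (no gap joined). Both reversals were of H3K36me3 inside the regions, where 0.335 became 1.13 with the input scaled on background bins and 1.19 with the amplified input. The other values there were 0.349 without tag shift, 0.382 with 30 tags and a ratio of 8 per bin, 0.359 with no gap joined, 0.340 with bins begun 500 bp later, 0.364 with flanks of 1 to 6 kb and 0.360 with flanks of at least 3 and below 0.5. Those flank limits also left 2226 regions in place of 3521. The share at 11 to 21 kb on the marked side was 86.9% (background scale), 68.0% (1 to 6 kb) and 74.3% (flank limits), and on the other side 17.0%, 18.8% and 9.75%, and 15.0% with the amplified input. The median run was 30 kb (background scale) and 20 kb (flank limits). H3K4me3 beyond the edges, 0.990, was 0.95 (later bins), 0.973 (1 to 6 kb), 1.01 (flank limits) and 1.01 (input repeats kept). Both intervals at 1.01 (0.994 to 1.03 and 0.993 to 1.02) include 1. No setting gave a value above 1 by more than counting error. Neighbours within 10 kb of the marked edge were 3.70% (background scale), 2.02% (30 tags) and 7.80% (no gap joined), and of the other edge 3.97%, 3.71% and 10.0%, with 8.96% (1 to 6 kb) and 5.03% (flank limits). The lean of the unamplified input was 75.1% (amplified input as divisor) and 78.1% (30 tags), and that of H3K4me3 was 45.6% (30 tags) and 44.7% (later bins). The cause of these moves was not tested.

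With the background scale of 0.111, 2974 regions were one-sided and shared 1962 with the 3521 (66.0% and 55.7% of each list), all 1962 with the same marked side. The other alternatives shared from 2226 to 3521 of the regions, also with the same side. No paired analysis was possible because each group held 1 library.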
